A study of Ovis aries with 60 samples.

Results

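The transcripts examined here are those of 10 genes of the piRNA pathway, PIWIL1, PIWIL2, PIWIL4, DDX4, TDRD1, TDRD5, TDRD6, TDRD7, TDRD9 and MAEL, in RNA from the semen of 20 rams. They were taken by gene symbol from a count table of 28525 genes, all 10 were present, and all 10 were among the 13577 genes tested, a gene being tested when over 10 rams had 15 or more reads of it. The study followed Polypay sheep over 3 generations. The F0 rams were male twins, with 1 twin of each pair on each diet. They received either a control diet or the control diet with encapsulated, rumen-protected methionine from weaning to puberty. All F1 and F2 animals were kept on control diets. The RNA came from the F2 generation only, from 10 grandsons of methionine-fed rams (the methionine line) and 10 grandsons of control rams (the control line), with 2 grandsons for each of 10 F0 sires, born through 1 F1 ram per sire. Libraries are called by their sample titles, which hold the ram number and end in T for the methionine line and C for the control line. The 2 grandsons of a sire are related, so the 20 rams are not fully independent, and p-values over rams may be too small. The lines are also related through the F0 twins. The labels do not give the pairs, and the main diet test did not use them.

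PIWI-interacting RNAs (piRNAs) are short RNAs of the germ line that guide PIWI proteins to transposon transcripts and other targets, which are then cleaved or silenced. Their precursors are processed in cytoplasmic granules of male germ cells, the intermitochondrial cement of spermatocytes and the chromatoid body of round spermatids, where Tudor domain proteins hold PIWI proteins together with their partners. The ejaculated sperm cell is almost silent in transcription, and most of its RNA was made earlier in spermatogenesis.

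The semen cells had been washed in a lysis buffer for somatic cells before RNA extraction. The 20 libraries held between 805831 and 13137757 counts (median 3436936), no pair of libraries was identical, and the scaling factors of the trimmed mean of M-values (TMM) ran from 0.361 to 2.54. The sperm label was checked against summed levels of marker genes, in CPM (counts scaled to the TMM-adjusted library size). The 15 markers of elongating spermatids in the table, among them the protamine gene PRM1 and CABS1, a spermatid gene for a calcium-binding protein, were detected in every ram, but their sum ran from 217 CPM in SpermRNA468C to 18100 CPM in SpermRNA485C, an 83.6-fold range. The 14 leukocyte markers, led by CSF3R, summed to between 83.8 and 23000 CPM, and the 14 markers of squamous epithelium, led by KRT4, to between 139 and 34600 CPM. The epithelial markers KRT5, KRT6A and LY6D were low in every ram, at up to 8.62, 6.75 and 4.26 CPM. All these levels are shares of a library, so fewer sperm cells and less RNA per sperm cell cannot be told apart.

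The 10 genes together received between 108 and 1997 reads per ram (median 419.5), and single genes between 2 and 507 reads, so a single low value carries a wide counting error. Their summed level was lowest in SpermRNA372T (62.9 CPM) and highest in SpermRNA485C (370 CPM), a 5.88-fold range. In the methionine line the sum had a lowest value of 62.9, a median of 109 and a highest value of 325 CPM. In the control line the same 3 values were 64.8, 140 and 370 CPM. The range within each line was far wider than the gap between the lines. On the log2 scale the mean sum was 6.95 ± 0.884 in the methionine line and 7.10 ± 0.848 in the control line (SD, n = 10 each), a difference of -0.16. That difference depended on single rams. It was -0.000151 without SpermRNA485C, and with each other ram left out in turn it lay between -0.314 (without SpermRNA359T or SpermRNA382T) and -0.051 (without SpermRNA372T).

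Among the PIWI proteins themselves, PIWIL1, which binds the abundant piRNAs of meiotic and postmeiotic cells, ran from 2.37 over a median of 8.09 to 26.4 CPM in the methionine line. In the control line it ran from 5.22 over 8.50 to 32.7 CPM. The lines overlapped almost entirely, and the highest ram of each line, SpermRNA359T and SpermRNA485C, stood among the 3 highest for spermatid markers. PIWIL2, the PIWI protein found from the early germ line onwards, ran from 2.65 over 7.29 to 17.4 CPM in the methionine line and from 3.23 over 7.77 to 18.2 CPM in the control line. PIWIL4, the nuclear PIWI protein known for directing transposon methylation in fetal germ cells, ran from 0.420 over 3.11 to 11.8 CPM and from 0.808 over 5.39 to 8.48 CPM in the same order. Its lowest value, in SpermRNA372T, rested on 2 reads.

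DDX4, the germ-cell RNA helicase also called VASA, ran from 6.12 over 13.9 to 51.4 CPM in the methionine line and from 5.22 over 13.7 to 26.7 CPM in the control line. MAEL, an HMG-box protein needed for transposon silencing, ran from 3.37 over 8.84 to 61.0 CPM and from 3.22 over 6.88 to 50.0 CPM. For both genes the top methionine-line ram exceeded every control ram, while the medians were close.

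For the Tudor domain genes TDRD1 and TDRD9 the lines overlapped widely too, but the highest value lay in the control line. TDRD1, a scaffold that binds PIWI proteins, ran from 1.47 over 6.82 to 34.3 CPM in the methionine line and from 4.87 over 8.49 to 39.8 CPM in the control line. TDRD9, a helicase with a Tudor domain, ran from 8.39 over 15.2 to 82.5 CPM and from 5.93 over 14.7 to 86.0 CPM. Each of these genes spread over at least an 8.16-fold range within a line, against medians that differed by a small part of that.

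TDRD5 and TDRD6 encode components of the chromatoid body. TDRD5 ran from 2.94 over 7.61 to 15.9 CPM in the methionine line and from 1.96 over 8.10 to 24.4 CPM in the control line. TDRD6 ran from 0.629 over 8.97 to 15 CPM and from 2.22 over 8.77 to 19.4 CPM. The lines again overlapped in most of their range. TDRD7, a chromatoid body protein that is also used outside the germ line, for example in the lens, ran from 11.7 over 27.9 to 69.1 CPM in the methionine line and from 12.1 over 25.8 to 120 CPM in the control line. Its top value belonged to SpermRNA350C, described further on.

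The study's question of a lasting effect of the F0 diet was put to each gene with edgeR's quasi-likelihood test over all 13577 genes with Benjamini-Hochberg adjustment. None of the 10 genes was called (adjusted p = 1 for each), against 0 of 13577 genes overall (0%). At an unadjusted p under 0.05 the counts were 0 of 10 and 104 of 13577 (0.766%), and DESeq2 likewise called 0 genes, with 174 under that unadjusted level. For no gene did the CPM values of the lines fail to overlap, among these 10 or among all 13577 (0%).

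The log2 fold changes, methionine line minus control line, were positive for 4 genes and negative for 6, with a median of -0.15 beside -0.05 over all genes tested. TDRD7 had the lowest value, -0.45 (SE 0.465), and MAEL the highest, 0.36 (SE 0.586). The order changed when single rams were left out. Without SpermRNA350C TDRD7 was at -0.168 and TDRD6 lowest at -0.461, without SpermRNA500T PIWIL4 was lowest at -0.72, and MAEL ran from -0.0581 without SpermRNA382T to 0.844 without SpermRNA485C. Without the 3 rams highest in spermatid markers, a setting chosen after seeing the data, all 10 fold changes were negative, from -0.895 for TDRD7 to -0.0933 for MAEL, and none passed. PIWIL2 at 0.00068 and TDRD1 at 0.0067 lay at 0. The 95% intervals give the reach of 10 rams a line: MAEL spanned -0.85 to 1.56, TDRD9 -1.19 to 0.91, TDRD7 -1.41 to 0.50, and the narrowest, TDRD5, -0.92 to 0.59. Differences inside these intervals, in either direction, were not resolved at this spread between rams.

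**Figure D1:**
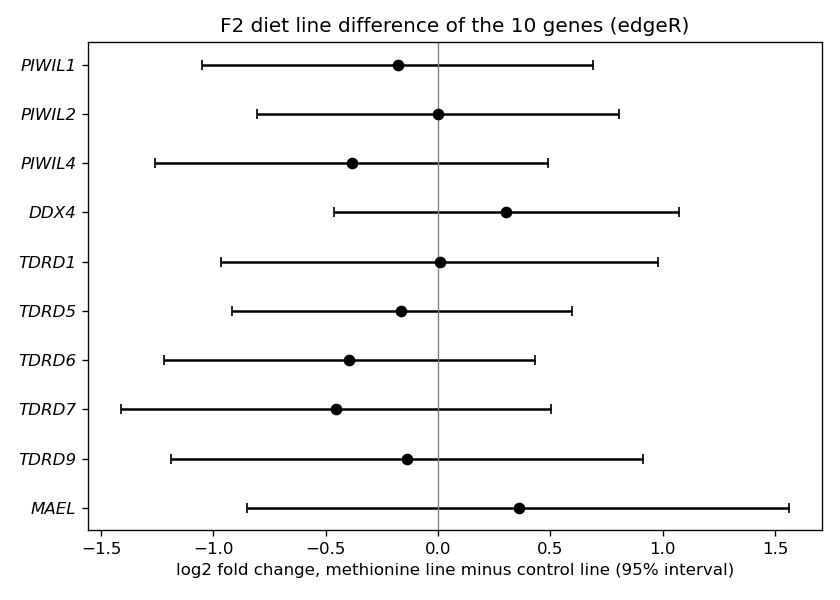
Log2 fold change of each of the 10 genes between the lines (x axis, methionine line minus control line; points are edgeR estimates, bars 95% intervals, n = 10 rams a line). All 10 intervals include 0, and the estimates run from -0.45 for TDRD7 to 0.36 for MAEL.

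A further list of 27 genes, drawn up for the pathway, was read beside these 10. It is broader than the pathway and also holds spermatid genes such as TSKS and DDX25. In the table were 26 of them, and 17 passed the filter on low counts. Between the lines 0 of the 17 were called by edgeR's quasi-likelihood test (0 at an unadjusted p under 0.05, and 0 by DESeq2). Their fold changes ran from -0.48 to 0.15 on the log2 scale. The 5 with the highest mean level were TEX15, RNF17, EXD1, TDRD15 and PIWIL3, and their log2 fold changes were -0.37, -0.14, 0.14, 0.15 and -0.32. TEX15 showed the widest interval, -2.23 to 1.50, and DESeq2 gave it the opposite sign (1.14).

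The composition of the libraries did not differ detectably by line either. The mean log2 spermatid sum was 10.9 ± 1.80 in the methionine line and 10.7 ± 1.91 in the control line (SD, n = 10 each). Over 8 marker lists, permutation tests of the difference (100000 resamples, two-sided) gave adjusted p = 0.943 for each. Medians of these sums were taken on the log2 scale and turned back to CPM. In the methionine and control lines they were 1280 and 1300 CPM for the leukocyte sum, and 8560 and 6850 CPM for the squamous sum.

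Most of the 10 genes followed the spermatid marker level of the library. In a fit chosen after seeing the data, edgeR's quasi-likelihood model was given the log2 spermatid sum as its only term, and the slope is the log2 change of a gene per log2 unit of that sum. Of the 10 genes, 8 rose with the spermatid level after Benjamini-Hochberg adjustment and 0 fell, against 25.5% of all tested genes rising and 33.4% falling. The median slope was 0.27 for the 10 genes and -0.04 for all genes tested.

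MAEL was the steepest, with a slope of 0.69 (SE 0.075, adjusted p = 3.83e-08), and 4.1% of all tested genes were steeper. TDRD9 followed with 0.58 (SE 0.0643, adjusted p = 4.19e-08). TDRD1 had a slope of 0.45 (SE 0.0756, adjusted p = 2.93e-05) and PIWIL1 one of 0.38 (SE 0.0699, adjusted p = 9.21e-05). The intervals of MAEL (0.53 to 0.84) and TDRD9 (0.45 to 0.72) overlapped, so their order is not resolved. The other 4 that rose were shallower, TDRD5 at 0.27, PIWIL2 at 0.26, DDX4 at 0.26 and TDRD6 at 0.24. The remaining genes did not pass, TDRD7 with a slope of 0.23 (adjusted p = 0.0676) and PIWIL4 with 0.10 (SE 0.12, adjusted p = 0.489). The PIWIL4 interval, -0.15 to 0.34, overlapped that of PIWIL1 (0.24 to 0.52).

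**Figure D2:**
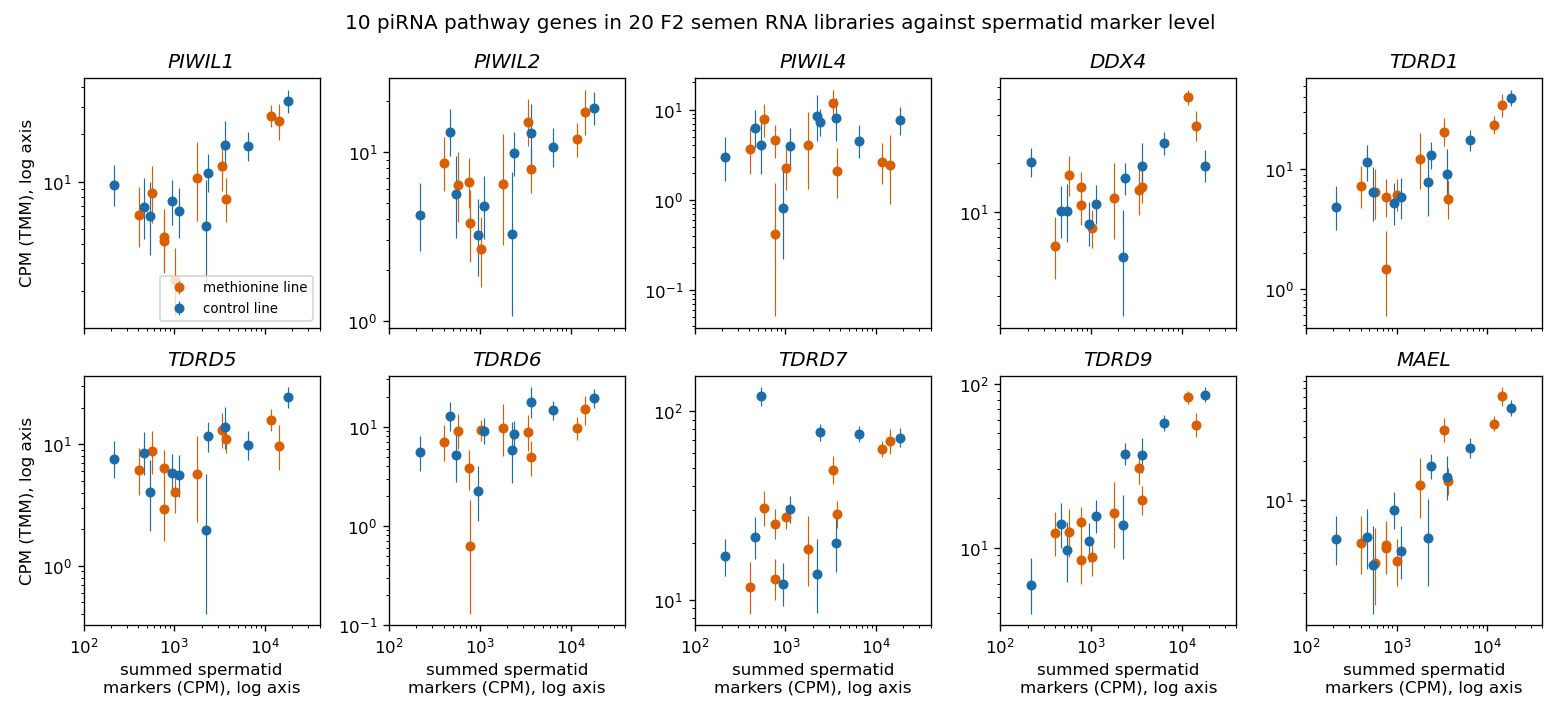
Level of each gene (y axis, TMM CPM, log axis) against the summed CPM of 15 elongating spermatid markers (x axis, log axis) in 20 rams; orange points are the methionine line, blue points the control line, and bars are exact 95% Poisson intervals that cover counting error only. MAEL and TDRD9 climb with the marker sum up to 61.0 and 86.0 CPM, PIWIL4 shows no such climb, and the highest TDRD7 value, 120 CPM, is in SpermRNA350C, which is low in spermatid markers.

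The number of genes that passed depended on the rams at the top of the spermatid range. Without the 3 highest, SpermRNA485C, SpermRNA382T and SpermRNA359T, MAEL, TDRD9 and TDRD1 still passed, with slopes of 0.71, 0.62 and 0.37, against 13.2% of all genes rising. The 5 that no longer passed had slopes of 0.32 (PIWIL1), 0.25 (PIWIL2), 0.19 (DDX4), 0.26 (TDRD5) and 0.27 (TDRD6) there. With counts summed over the 2 rams of each sire, 4 genes passed (MAEL, TDRD9, PIWIL1 and TDRD7), against 8.45% of all genes. The choice of scaling mattered for the background. With library size alone, all 10 genes rose, but so did 57.4% of all genes, and the count of 10 is to be read against that. The TMM factor itself moved with the member sum over 20 rams (r = 0.727, permutation p = 0.00041, adjusted p = 0.00164, with 4 relations tested). The rho was 0.69 (permutation p = 0.00107, adjusted p = 0.00428). The part of this factor in the slopes was not tested beyond the alternatives for scaling and library total. Without the 2 rams farthest from the median factor r was 0.703, and within the methionine and control lines it was 0.805 and 0.699. Without any TMM factor the 10 genes together held between 26.5 CPM in SpermRNA400C and 588 CPM in SpermRNA382T, a 22.2-fold range.

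Most of the other listed genes climbed as well. Of the 17 tested, 13 rose with the spermatid level and 0 fell, against 25.5% of all tested genes rising and 33.4% falling. Their median slope was 0.54, beside -0.04 for all genes tested. The 13 include the spermatid genes TSKS (0.55) and DDX25 (0.54). TEX15, a nuclear factor of transposon silencing in the male germ line, had a slope of 1.04 (SE 0.113), and ran from 41.7 to 6000 CPM over the 20 rams. RNF17, a Tudor protein with a RING finger, had a slope of 0.77, TDRD15 0.74, EXD1 0.68 and PIWIL3 0.63. The 4 that did not pass were TDRD12 (0.13), SPOCD1 (0.10), HENMT1 (0.03) and PNLDC1 (-0.07). Of the 4 tested genes of the Sertoli and Leydig cell list, WT1 (0.17), GATA4 (0.18) and FSHR (0.19) did not pass, with values close to those of TDRD6 and TDRD7, and SOX9 fell with a slope of -0.37 (adjusted p = 0.000531).

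No difference in slope between the lines passed the test, which does not show that the slopes were alike. In a fit with a term for slope by diet line, 0 of the 10 genes and 0 of 13577 genes (0%) were called by edgeR's quasi-likelihood test, and at an unadjusted p under 0.05 the counts were 0 and 253 (1.86%). The difference in slope, methionine line minus control line, ran from -0.25 for PIWIL4 to 0.30 for DDX4, for both genes wider than the slope over all rams.

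Correlation over the 20 rams gave a second view, with log2(CPM + 1) of each gene set against the log2 sum of each of 8 marker lists, 80 relations in all, with permutation p-values adjusted over the 80. With elongating spermatid markers, 9 of the 10 genes passed with a positive r, the exception being PIWIL4 (r = 0.168). TDRD9 was highest with r = 0.921 (permutation p = 1e-05, adjusted p = 0.0001), and rho = 0.862 (permutation p = 1e-05, adjusted p = 0.0002). MAEL had r = 0.90 (permutation p = 1e-05, adjusted p = 0.0001) and rho = 0.805 (permutation p = 4e-05, adjusted p = 0.000533), and 1e-05 is the smallest p the resamples can give. All these relations share the library and its scaling factor. The weakest r that passed was 0.512 (TDRD6), and 23.6% of all tested genes had an r as high or higher. The median r was 0.613 for the 10 genes and -0.0569 for all tested genes. With the round spermatid sum, which DPY19L2 leads with 73.6% of its level, 9 of the 10 genes passed too, without PIWIL4 (r = 0.238), and 23.1% of all genes reached the weakest r that passed (0.578).

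When the 2 rams farthest from the median spermatid level (SpermRNA485C and SpermRNA382T) were left out, r stayed at 0.888 for TDRD9 and 0.844 for MAEL, and 4 of the 10 genes passed. An r of 0.512 or more was then held by 5 of the 10 genes and 17.4% of all genes, with a median r of 0.501 for the 10 and -0.0847 for all. PIWIL2, DDX4, TDRD5, TDRD6 and TDRD7 no longer passed. Their r went from between 0.512 and 0.624 over all 20 rams to between 0.355 and 0.525 in that setting. DDX4, at 0.525, was among the 5 that still held an r of 0.512 or more. Over the means of the 10 sires, 0 of 10 passed, TDRD9 having r = 0.807 (permutation adjusted p = 0.0713), while 5 of the 10 and 19.2% of all genes held an r of 0.512 or more, with medians of 0.475 and -0.00539. Within the lines TDRD9 had r = 0.909 (methionine line) and 0.94 (control line), and MAEL 0.939 and 0.87. With the elongating spermatid sum, the widest gap between the lines was that of PIWIL4, with r = -0.0602 in the methionine line and 0.471 in the control line. DDX4 and TDRD7 had r = 0.821 and 0.838 in the methionine line and 0.349 and 0.37 in the control line. These gaps were not tested.

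Against the summed markers of epithelium and leukocytes the sign turned. Single markers did not all follow. A positive r with the member sum was held by 4 of 14 squamous, 2 of 5 simple epithelial and 1 of 14 leukocyte markers (not tested). With the squamous sum, 9 of 10 genes passed with a negative r, TDRD9 at -0.856 and MAEL at -0.814, and PIWIL4 (-0.324) did not. The median r was -0.704 for the 10 genes and 0.0155 for all tested genes, of which 27.5% had an r as low as the weakest that passed (-0.552). With the simple epithelium sum, which KRT19 leads with 89.8% of its level, 9 passed, all negative and again without PIWIL4 (-0.317), with a median r of -0.736 against 0.00529 for all genes, of which 26.5% reached the weakest r that passed (-0.562). With the leukocyte sum 7 passed, all negative, and PIWIL4 (0.0407), TDRD7 (-0.0276) and TDRD6 (-0.375) did not. The median r was -0.533 there against -0.0138 for all genes, and 15.4% of all genes reached the weakest r that passed (-0.50). That weakest r was the one of TDRD1, whose rho, -0.257, did not pass (permutation adjusted p = 0.325). Without SpermRNA350C and SpermRNA485C, the rams farthest from the median leukocyte sum, r was -0.372 for TDRD1 and -0.196 for TDRD7. TDRD7 had r = -0.392 in the methionine line and 0.179 in the control line. No test was run in these settings. The Sertoli and Leydig sum went the other way, with all 10 r positive, from 0.172 to 0.687, and an all-gene median of -0.00905. Of the 10 genes 2 passed with it, TDRD1 and TDRD6, and 9.27% of all genes reached the weaker r of that pair (0.494). Without the 2 rams farthest from the median of the Sertoli and Leydig sum, r was 0.351 for TDRD1 and 0.64 for TDRD6. The rho of TDRD1 with that sum, 0.463, did not pass (permutation adjusted p = 0.064). Within the methionine line r with that sum was negative for DDX4 (-0.0424) and TDRD5 (-0.0713). In the control line their r was 0.837 and 0.81. The other genes were positive in both lines, and these gaps were not tested. SOX9, which leads that sum with 26.6% of its level, had r = -0.745 with the member sum. Of the 10 genes of that list 8 had a positive r with the member sum. Most of the 10 genes had a positive r with the spermatid sums and a negative r with the epithelium and leukocyte sums. These are the same libraries, so the part of each in these relations cannot be told apart from correlations alone.

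**Figure D3:**
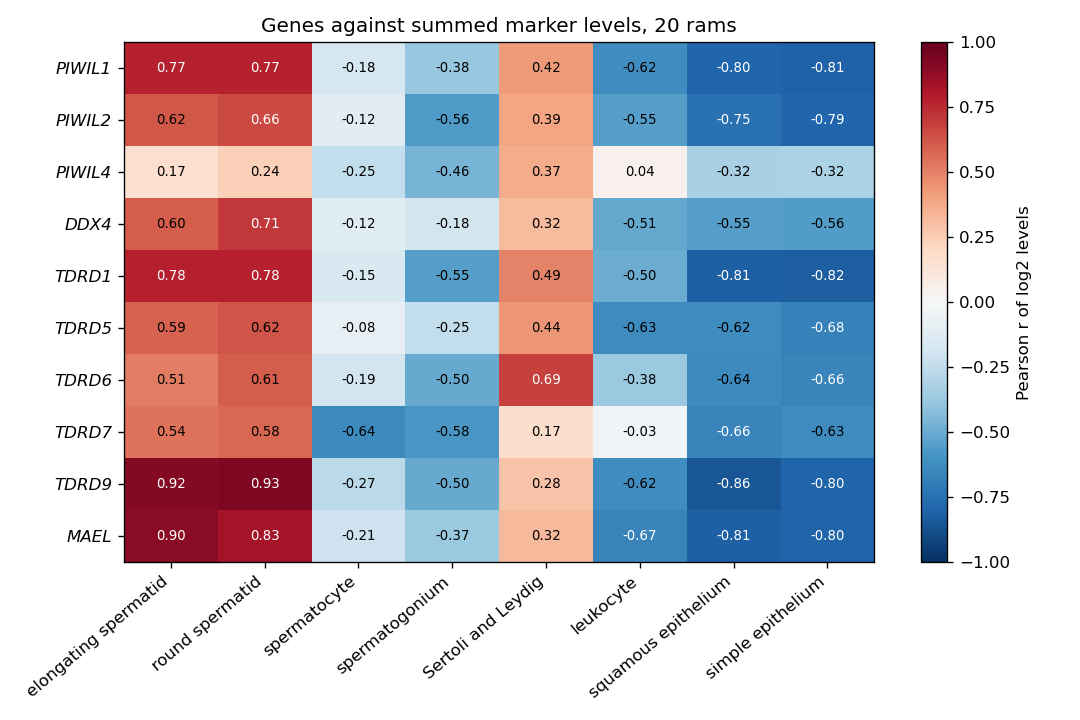
Pearson r between log2(CPM + 1) of each of the 10 genes (rows) and the log2 summed CPM of 8 marker lists (columns) over 20 rams; red is positive and blue negative. The columns for spermatids are positive and those for epithelium negative in all rows, weakest in the row of PIWIL4, and TDRD7 and PIWIL4 stand near 0 in the leukocyte column.

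With the lists named for earlier germ cells, all 10 genes had a negative r against the sums over the 20 rams. With the spermatogonium sum 5 of them passed (PIWIL2, TDRD1, TDRD6, TDRD7 and TDRD9), from -0.582 to -0.502, and 16.1% of all genes had an r as low as the weakest of these. Without SpermRNA468C and SpermRNA372T, the rams farthest from the median of that sum, their r lay between -0.638 and -0.301, and no test was run there. The rho of TDRD6 with the spermatogonium sum, -0.346, did not pass (permutation adjusted p = 0.178). Within the lines the sign did not always hold. With that sum PIWIL1, TDRD5 and DDX4 had r = -0.817, -0.774 and -0.534 in the methionine line. In the control line they had r = 0.0378, 0.0704 and 0.159, and the other genes were negative in both lines. PIWIL2 (0.0795) and PIWIL4 (0.00384) were positive with the spermatocyte sum in the methionine line. These gaps were not tested. With the spermatocyte sum TDRD7 alone passed (r = -0.635, permutation adjusted p = 0.00809, and r = -0.522 without the 2 farthest rams), and 0.501% of all genes had an r as low. Single genes weighed heavily in both sums. The spermatocyte sum took 63.1% of its level from OVOL1, an epithelial transcription factor that also acts in spermatocytes and had r = -0.796 with the member sum. Of the 12 genes of that list 10 had a positive r with the member sum, the highest being SYCP2 of the synaptonemal complex at 0.915, and STAG3, a meiotic cohesin, had r = -0.231. In the spermatogonium list 6 of 11 genes had a positive r, DAZL being highest at 0.875 and STRA8 lowest at -0.827, and KIT, which made up 48.3% of the sum, had r = -0.692. The r values with the member sum describe 20 rams and were not tested.

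TDRD7 was the gene whose share of the set spanned the most percentage points between rams. As a ratio of highest to lowest share, PIWIL4 (0.667 to 12%), TDRD6 (1 to 12.4%) and MAEL (1.85 to 18.9%) spanned more. In SpermRNA350C, which had the highest leukocyte sum of all (23000 CPM) and a spermatid sum of 544 CPM, TDRD7 stood at 120 CPM from 297 reads. It made up 68.8% of the reads of the 10 genes there (95% exact binomial interval 64.1 to 73.1), against a median of 20.9% and a lowest share of 11.7% in SpermRNA413C. Without TDRD7 the other genes summed to 54.4 CPM in SpermRNA350C, within the low end of the 20 rams. After a line on the spermatid level was taken out, TDRD7 in SpermRNA350C lay 2.41 log2 units above it, the largest departure of any of the 10 genes in any ram.

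When the leukocyte sum was added to the slope fit, TDRD7 gained a spermatid slope that passed, 0.55 (edgeR adjusted p = 0.00108), and was the only one of the 10 genes with a leukocyte slope that passed, 0.35 (SE 0.0981, adjusted p = 0.0199), against 8.43% of all genes rising and 1.84% falling with leukocytes. That leukocyte slope depended on SpermRNA350C: without it the value was 0.15 (adjusted p = 0.644). The spermatid slope of TDRD7 without SpermRNA350C, in the fit on spermatid level alone, was 0.38 (adjusted p = 0.000793). In the fit with the leukocyte term, 5 of the 10 genes rose with the spermatid level (PIWIL1, TDRD1, TDRD7, TDRD9 and MAEL), against 20.2% of all genes. PIWIL2, DDX4, TDRD5 and TDRD6 no longer passed, with slopes between 0.18 and 0.21.

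**Figure D4:**
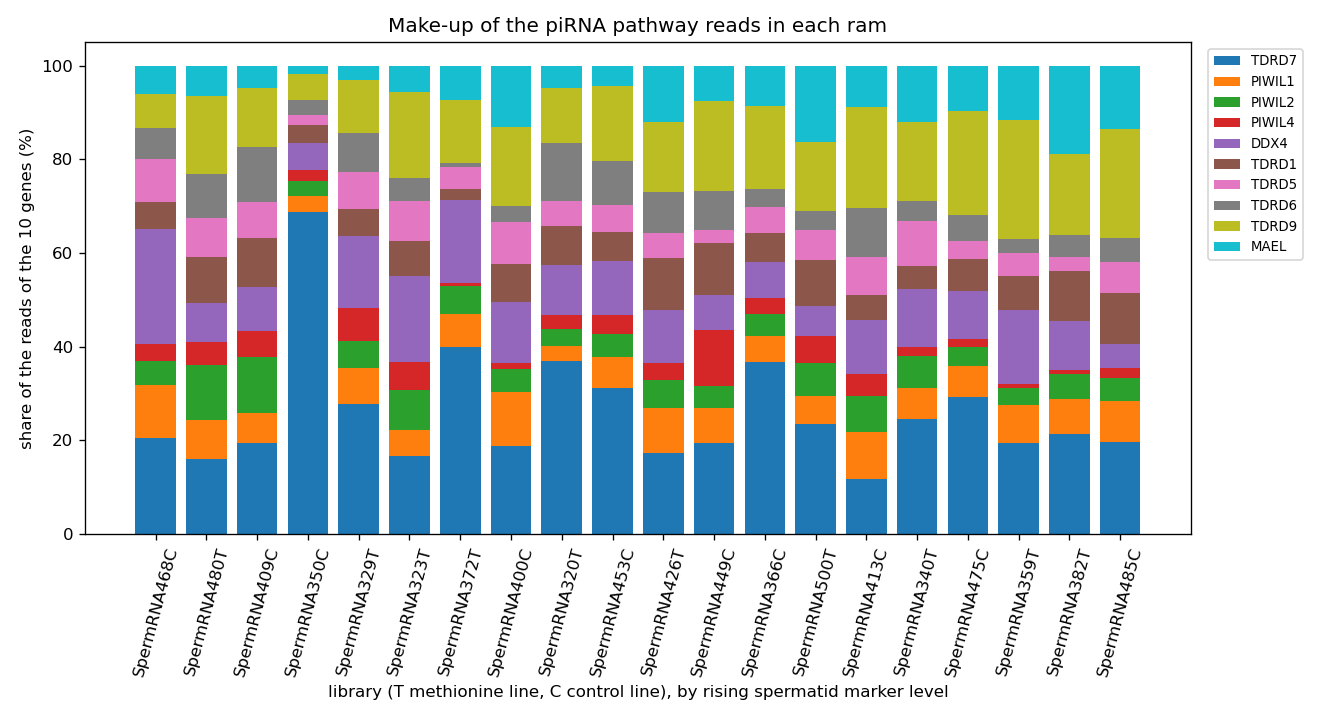
Share of the reads of the 10 genes taken by each gene (stacked bars, percent of the gene set's reads) in 20 rams ordered from left to right by rising spermatid marker level; titles ending in T are of the methionine line and those ending in C of the control line. TDRD7 takes 68.8% in SpermRNA350C, and the shares of TDRD9 and MAEL reach 25.4% and 18.9% in SpermRNA359T and SpermRNA382T at the right.

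The other shares moved over fewer percentage points. TDRD9 had a median share of 16.7% and ran from 5.56% in SpermRNA350C to 25.4% in SpermRNA359T. MAEL had a median of 7.99% and ran from 1.85% to 18.9% in SpermRNA382T. DDX4 differed among the 3 rams highest in spermatid markers. SpermRNA359T had 51.4 CPM of DDX4 from 316 reads and SpermRNA382T 34.4 CPM from 85 reads, while SpermRNA485C, with more spermatid marker RNA than either, had 19.4 CPM from 82 reads (95% Poisson interval 15.4 to 24.1). DDX4 took its lowest share, 5.25%, in SpermRNA485C and its highest, 24.5%, in SpermRNA468C, the ram lowest in spermatid markers. Relative to its line on the spermatid level, DDX4 lay 1.10 log2 units above in SpermRNA359T, 0.461 above in SpermRNA382T and 1.24 above in SpermRNA468C, and 0.415 below it in SpermRNA485C (residual -0.415).

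The 10 genes also varied together. Over the 20 rams all 45 pairs had a positive Pearson r of log2(CPM + 1), with a median of 0.641 (median rho 0.602). The closest pair was TDRD9 and MAEL (r = 0.903, rho = 0.821), followed by PIWIL1 and MAEL (r = 0.884) and PIWIL1 and TDRD9 (r = 0.87). The weakest was PIWIL4 and DDX4 (r = 0.013). These values are a description of 20 libraries in which all genes share the scaling factor, and they were not tested. Pairs of all tested genes were not measured in this way, so whether the 10 genes are closer than others is not known.

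PIWIL4 had the lowest median r, 0.327, to the other 9 genes, and its closest partner was TDRD6 (r = 0.647). TDRD7 had a median r of 0.527. Among the 28 pairs without these genes the median was 0.768. After the line on the spermatid level was taken out of each gene, the median over the 45 pairs fell to 0.472 and 44 pairs stayed above 0, with TDRD9 and MAEL down to 0.437 and PIWIL2 and TDRD5 at 0.726. As ratios to the spermatid sum the median was 0.882, a value that the shared denominator enters. With library size alone in place of TMM the median over the 45 pairs was 0.881.

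**Figure D5:**
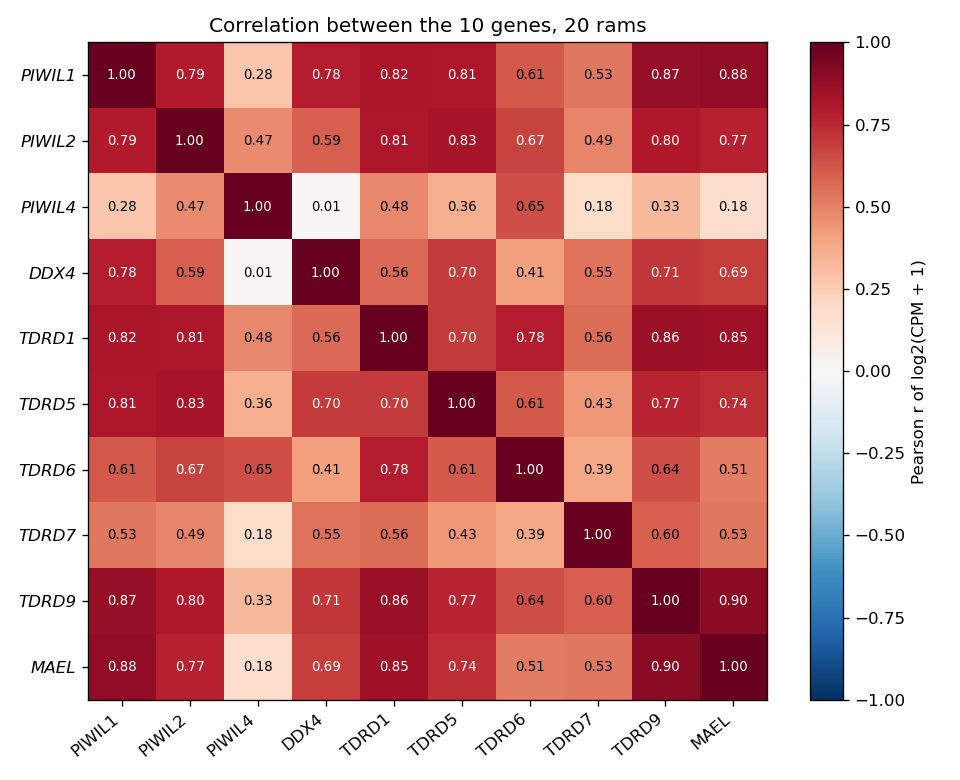
Pearson r between each pair of the 10 genes (rows and columns, log2(CPM + 1), 20 rams); the diagonal is 1 by construction. All pairs are above 0, the darkest cell is TDRD9 with MAEL at 0.903, and the palest row is PIWIL4 with a lowest value of 0.013 against DDX4.

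The genes most like the set were found by ranking the other 13567 tested genes on their Pearson r with the log2 member sum over the 20 rams. The 10 highest were NBAS (r = 0.96), HYDIN (0.956), IQCK (0.95), DCDC1 (0.942), KIAA1324 (0.94), KIF2C (0.939), RPGRIP1 (0.938), C6H4orf36 (0.938), KATNAL2 (0.936) and LRRC7 (0.936). HYDIN encodes a protein of the sperm tail axoneme and ran from 12.4 to 174 CPM. In all, 1057 genes had an r of at least 0.8, while the median over the 13567 genes was -0.0359.

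Rams of the same F0 sire were no closer to each other, by the median difference, than rams of different sires. The 2 grandsons of a sire differed in their member sum by between 1.07-fold (sire 11, SpermRNA426T and SpermRNA340T) and 5.14-fold (sire 9, SpermRNA372T and SpermRNA382T), with a median of 1.91-fold. The median absolute difference was 0.925 on the log2 scale over the 10 pairs of the same sire and 0.828 over the 180 pairs of different sires. In 6 of the 10 pairs the ram with the higher member sum was also the one with the higher spermatid sum, and these included the 5 pairs with the widest gaps. In sire 9, for example, SpermRNA382T had 324 CPM of the 10 genes and 14300 CPM of spermatid markers, and SpermRNA372T had 62.9 and 773 CPM. These differences between related rams were not tested.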

How the data were processed

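Semen RNA of 20 F2 rams was sequenced as 100-base single-end reads. The authors trimmed the reads with Trimmomatic, aligned them with STAR to the sheep genome Oar_rambouillet_v1.0 and deposited its gene counts. The values used are these raw counts. The paper reports more reads for each library than these counts hold. It also reports more expressed genes, by a filter worded in the same way, than were tested here. Why they differ was not tested. Which strand column was taken, and STAR's version, are not given in the sources used here, so overlapping and antisense transcripts may share counts. No per-sample column was left unassigned.

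Counts were analysed in R 4.3.3 with edgeR 4.0.16 (TMM factors, quasi-likelihood test, a gene tested when over 10 rams had 15 or more reads, Benjamini-Hochberg threshold 0.05). DESeq2 1.42.0 was an alternative. CPM are TMM-scaled. Groups came from the sample labels, and library totals are given with the results. Correlations used log2(CPM + 1) and two-sided permutation p-values from 100000 resamples. Intervals on single rams cover counting error only. The scripts were tested on simulated counts in which 200 of 13577 genes were changed. The diet fit recovered 128 of the 200 at a 4-fold change and 2 at a 2-fold change. The slope fit recovered 92 of 200 at a slope of 0.5. The members and gene lists were chosen with earlier results of these data known. The text names the 10 members, other pathway genes called between the lines or among the 5 highest by mean CPM, the 10 genes with the highest r, and the leading gene of each marker list. Further genes were named after their values were seen. These were the listed pathway genes without a spermatid slope, TSKS, DDX25, the Sertoli cell genes and the genes named in the germ cell lists. PRM1 and the low epithelial markers KRT5, KRT6A and LY6D were named in the same way. Methylation at these genes was planned but not analysed here, because the gene coordinates at hand are of another build than the 9 methylation files. Sequences are not shown.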

Additional observations from a re-analysis of the deposited data

Results flagged for a closer look

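Control SpermRNA485C, which had the highest spermatid marker sum of the 20 rams (18100 CPM), stood far from the other 9 control rams for 3 of the 10 genes by Dixon's gap test. PIWIL1 was 32.7 CPM there, against 17.2 CPM in the next highest control ram. TDRD1 was 39.8 CPM, against 17.5 CPM. MAEL was 50.0 CPM, against 24.8 CPM. TDRD5 in the same ram (24.4 CPM, next 14 CPM) fell just short of the limit. In the methionine line no gene passed it, where SpermRNA359T and SpermRNA382T, with spermatid sums of 11700 and 14300 CPM, lay beside each other. Chance flags about 1 in 20 groups of normally distributed values. The test was run on CPM, which are skewed here, and the rate for such values was not determined. The lines and genes gave 20 groups, and the 3 flags come from 1 library.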

How the results depend on the processing

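No gene of the 10, and no gene of all tested, was called between the lines under any alternative for the diet test, which were DESeq2, RLE factors, library size alone, no filter on low counts, counts summed per F0 sire, a block of consecutive sire numbers, spermatid or leukocyte covariates, leaving out libraries under 0.25 of the median spermatid level (SpermRNA468C alone, so the same fit as without that ram), leaving out the 3 rams highest in it (chosen after seeing the data), and each ram left out in turn. Signs of fold changes were not stable, including those of DDX4 and MAEL, which were highest over all rams. PIWIL2 turned to -0.0233 with DESeq2, -0.0217 with RLE, -0.157 with library size alone, -0.0599 with the spermatid covariate, -0.0758 without SpermRNA468C and -0.161 without the 3 highest rams. TDRD1 turned to -0.00639 with library size alone, -0.158 per sire, -0.138 with the spermatid covariate, -0.0852 without SpermRNA468C and -0.257 without the 3 highest rams, where DDX4 was -0.342, MAEL -0.0933, PIWIL1 -0.581, TDRD9 -0.683 and TDRD7 -0.895. With the spermatid covariate DDX4 fell to 0.0801 and MAEL to 0.0153. With 1 ram left out, the log2 fold change ran from -0.452 to 0.132 for PIWIL1, -0.157 to 0.197 for PIWIL2, -0.0304 to 0.443 for DDX4, -0.292 to 0.43 for TDRD1, -0.321 to 0.125 for TDRD5, -0.543 to 0.223 for TDRD9, -0.72 to -0.234 for PIWIL4, -0.548 to -0.234 for TDRD6, -0.631 to -0.168 for TDRD7 and -0.0581 to 0.844 for MAEL. The difference of the summed level was between -0.108 and -0.358 as a ratio to spermatid markers, as a mean over genes, per sire and with library size alone, and -0.349 without the 3 highest rams. With 1 ram left out (added after seeing the data) it ran from -0.314 to -0.000151, the latter without SpermRNA485C. The lines share no replicate numbers, and the labels do not say which sire numbers are twins. The block of consecutive sire numbers, used in place of a known pairing, turned no sign of the 10 genes and gave fold changes from -0.567 (PIWIL4) to 0.309 (MAEL).

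All alternatives for the slopes were chosen after seeing the data. The count of 8 rising genes became 5 with a leukocyte term, 3 without the 3 highest rams and 4 per sire. It was 7 to 10 under the other alternatives (10 with library size alone). Of all tested genes 28.3% rose with the round spermatid sum, 21.2% with a library total term, 25% with a diet term and 27.9% with DESeq2. With 1 ram left out the count was 7 to 9, against 20.5% to 26.7% of all genes. The 7 came without SpermRNA382T or SpermRNA485C, where TDRD6 no longer passed. Without SpermRNA382T its slope was 0.244 (edgeR adjusted p = 0.0504), beside 0.24 over all rams. With 1 ram left out, the highest edgeR adjusted p of the TDRD6 slope was 0.104. PIWIL4 turned to -0.0735 with the library total as a term and -0.2 per sire. The count of 9 positive correlations with spermatid markers became 4 without the 2 farthest rams and 0 over sire means, a setting with 10 points, where PIWIL4 had r = -0.24. The median r between the genes moved from 0.641 to 0.881 with library size alone. Why these values moved was not tested. The library total was itself related to the member sum (r = -0.474, permutation p = 0.0355, adjusted p = 0.0474; rho = -0.478, permutation p = 0.0344, adjusted p = 0.0459; -0.449 without the 2 farthest rams). Methylation alternatives were not run. The ram with the fewest reads had 108 over the 10 genes, which limits its single values.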
